A study of Neurospora crassa with 4 samples.

Results

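The genes described here are the enzymes of *Neurospora crassa* that break down polysaccharides of plant cell walls, together with starch-degrading enzymes. They were taken as every row of the deposited tables whose Broad gene description held a word such as endoglucanase, cellulase, xylanase, pectate, polygalacturonase, beta-glucosidase, galactosidase or amylase, and neither the word transporter nor the words glucosidase II. The rule found 71 genes among 9691 rows. The description alone put each gene in 1 of 7 classes, with 24 genes for cellulose, 6 for beta-glucosidases, 16 for xylan, 11 for pectin and arabinan, 5 for galactosidases, 3 for starch and 6 for 1,3-glucan. The last class does not match the label of plant cell wall enzymes, because 1,3-beta-glucan is a main polymer of the fungus's own wall, and starch is a plant storage polymer rather than a wall component.

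The study measured mRNA by RNA sequencing in cells with and without *czt-1*, the gene of a zinc cluster transcription factor, to learn how the factor shapes the answer to staurosporine. Conidia, the asexual spores of the fungus, were grown for 6 h at 26 °C in minimal medium with sucrose, and staurosporine or its solvent DMSO was then present for 1 h. Staurosporine is a broad inhibitor of protein kinases that kills *N. crassa* cells. There were 4 groups with 1 library each, Δ*czt-1* cells with 20 μM staurosporine, Δ*czt-1* cells with DMSO, wild-type cells with 20 μM staurosporine, and wild-type cells with DMSO. The Δ*czt-1* strain is a deletion strain from a stock collection, and no strain with the gene put back was sequenced. With 1 library in a group, the spread between replicates is unknown and no difference could be checked against it, so sizes and counts are given without a test.

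*N. crassa* grows on dead plant material and secretes enzymes that act together. Endoglucanases cut within cellulose chains, exoglucanases release cellobiose from chain ends, and beta-glucosidases split cellobiose to glucose. Xylanases, pectin-degrading enzymes and esterases open the matrix around the cellulose. The transcription factors CLR-1 and CLR-2 turn on cellulase genes and XLR-1 turns on xylanase genes, while CRE-1 holds many of them down when a preferred sugar is at hand.

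The deleted gene was read first. *czt-1* (NCU09974) was at 1.54 FPKM in Δ*czt-1* with staurosporine and 2.26 FPKM in Δ*czt-1* with DMSO, against 384 FPKM in wild type with staurosporine and 19.7 FPKM in wild type with DMSO. FPKM counts fragments scaled for transcript length and library size, so levels of different genes can be set side by side. The 4 libraries had FPKM sums between 550288 and 1072129, and the sums were lower with staurosporine than with DMSO in both strains. The number of reads behind each value is unknown, and a gene listed at 0 may have been missed. In RNA from a whole culture, fewer cells that express a gene and less of its RNA in each cell cannot be told apart.

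Most of the 71 genes were weakly expressed. In 19 genes (26.8%) the FPKM stayed under 1 in every library, in 33 genes (46.5%) the highest FPKM was between 1 and 10, and in 19 genes (26.8%) it was 10 or more. Over all rows the corresponding shares were 18.5%, 23.2% and 58.3%. The median level of the 71 genes was 2.23 FPKM in Δ*czt-1* with staurosporine, 1.19 FPKM in Δ*czt-1* with DMSO, 2.22 FPKM in wild type with staurosporine and 1.13 FPKM in wild type with DMSO, beneath the median of all rows, which lay between 8.64 and 9.76 FPKM in the 4 libraries. NCU04027 (*gh7-3*, described as endoglucanase EG-1) and NCU09026 (feruloyl esterase B) were listed at 0 in all 4 libraries.

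Among these weakly expressed genes, 4 stood far above the others in each library. They were NCU05404 (endoglucanase), NCU07974 (endoglucanase B), NCU08131 (*gh13-1*, an alpha-amylase, which cuts within starch) and NCU09175 (a GPI-anchored cell wall beta-1,3-endoglucanase, an enzyme of the fungal wall). They held 88.6% of the summed FPKM of the 71 genes in Δ*czt-1* with staurosporine, 87.1% in Δ*czt-1* with DMSO, 80.2% in wild type with staurosporine and 89.7% in wild type with DMSO. The remaining genes summed to 333 FPKM in Δ*czt-1* with staurosporine and 172 FPKM in Δ*czt-1* with DMSO, and to 330 FPKM in wild type with staurosporine and 151 FPKM in wild type with DMSO. Their sum was therefore close to equal in the staurosporine libraries of both strains.

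**Figure D1:**
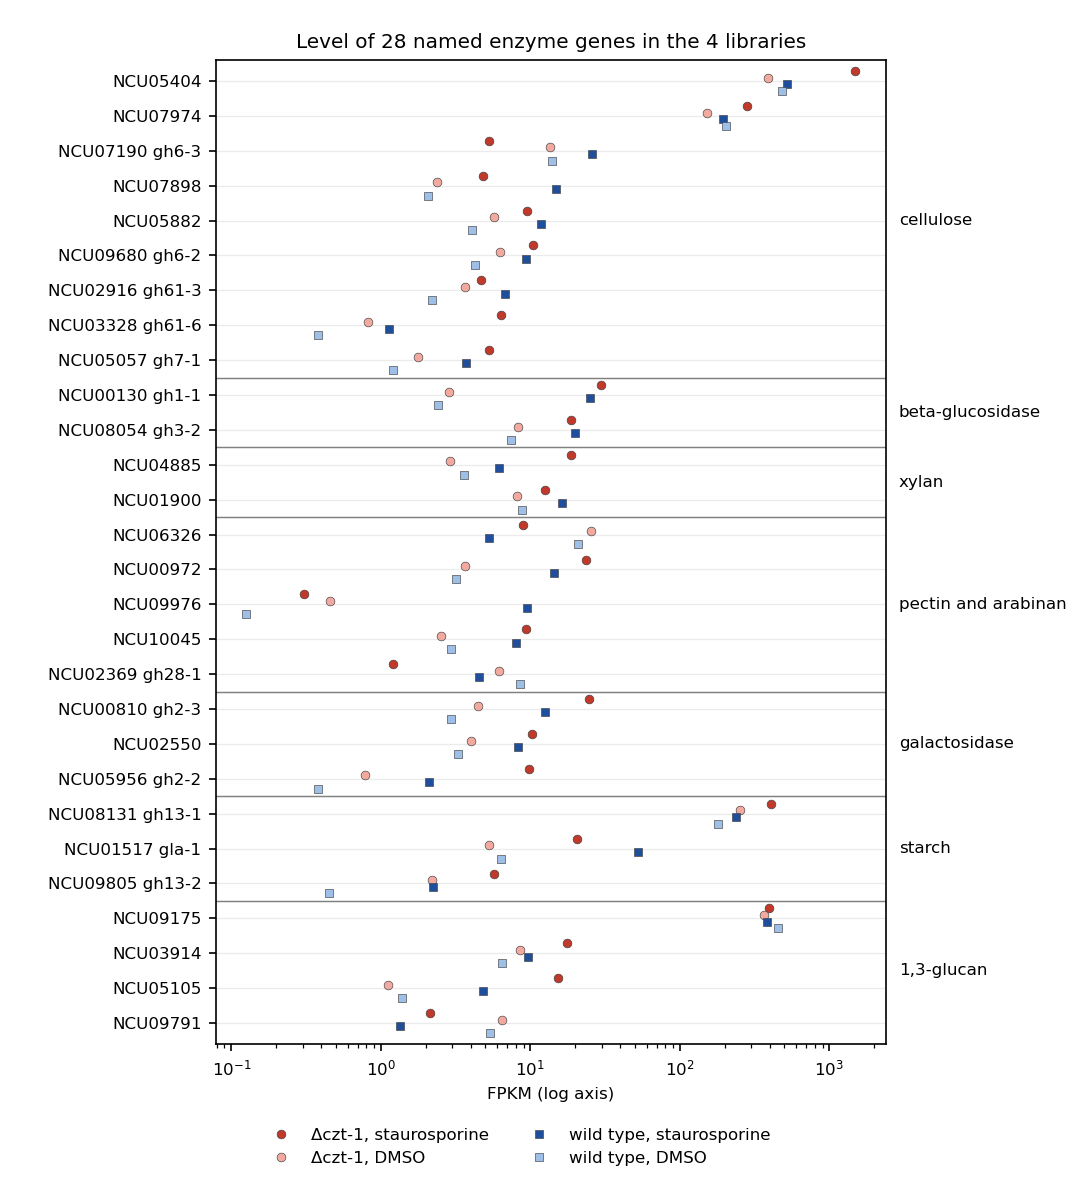
FPKM on a log axis of the 28 genes of the module with at least 10 FPKM in a library, or with at least 5 FPKM and a change of at least 2-fold, in the 4 libraries (1 point per library, genes grouped by class). NCU05404, NCU07974, NCU08131 and NCU09175 lie between 152 and 1488 FPKM, while no other gene passes 52.2 FPKM.

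Changes were taken as differences of log2(FPKM + 1), which understate the change of low genes, over the rows with at least 1 FPKM in any library. Of the 71 genes, 52 passed this filter, and so did 7896 of all rows. A gene is called higher or lower below where it differed by at least 2-fold, that is by at least 1 on this scale. Since a weak gene can pass through the library in which it is high, the counts over the 52 genes are set beside the same counts over all rows and are a description only.

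In Δ*czt-1* cells, 19 of the 52 genes were higher and 5 were lower with staurosporine than with DMSO. These 24 genes are 46.2%, where 37.7% of all rows passed the 2-fold limit (18.2% higher and 19.6% lower). In wild-type cells, 17 genes were higher and 2 were lower. These 19 genes are 36.5%, where the share of all rows was 26.8% (12.8% higher and 14% lower). The excess over the background lay in the genes that were higher. Genes that were lower made up a smaller share than among all rows in both strains. At a highest FPKM between 1 and 10 this did not hold in Δ*czt-1*, with 9.09% of the genes lower against 7.17% of rows. In wild type it held there, with 3.03% against 5.3%. The median change of the 52 genes was 0.65 in Δ*czt-1* and 0.69 in wild type, with 0.00 and 0.11 over all rows. Changes above 0 made up 40 of the 52 (76.9%) in each strain. Over all rows this share was 50% in Δ*czt-1* and 55.3% in wild type. Among rows with a highest FPKM between 1 and 10 it was 63.5% and 62.2%, and for the 33 genes there 69.7% and 72.7%. Among rows of 10 FPKM or more it was 44.6% and 52.6%, and for the 19 genes there 89.5% and 84.2%. With a pseudocount of 5, which damps weak genes, the shares past 2-fold in either direction were under the background, at 17.3% in Δ*czt-1* and 15.4% in wild type, where 24.7% and 17.7% of all rows passed. The shares of higher genes stayed above it at this setting, at 15.4% (8 genes) in Δ*czt-1* and 13.5% (7 genes) in wild type, where 9.55% and 6.79% of all rows were higher.

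These shares varied with the level of expression. Among rows whose highest FPKM was between 1 and 10, where 33 of the genes fall, 23.5% of all rows were higher and 7.17% were lower in Δ*czt-1*, and 10 of the 33 genes were higher and 3 lower. In wild type the shares were 9.89% and 5.3%, and 8 of the 33 genes were higher and 1 lower. Among rows with a highest FPKM of 10 or more, where 19 of the genes fall, 16.1% of all rows were higher and 24.5% lower in Δ*czt-1*, and 9 of the 19 genes were higher and 2 lower. In wild type the shares were 13.9% and 17.5%, with 9 of the 19 genes higher and 1 lower. As shares, 47.4% of the 19 genes and 30.3% of the 33 genes were higher in Δ*czt-1*, and 47.4% and 24.2% in wild type. In their share of higher genes, the better expressed genes thus stood further above their background than the weak ones in both strains.

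In all, 12 genes were higher with staurosporine in both strains, 23.1% of the 52, where 6.51% of all rows were. With a pseudocount of 5 only NCU00130, NCU00810, NCU00972 and NCU01517 were higher in both, 7.69% of the 52, where 3.22% of all rows were. With the FPKM sums of the libraries made equal 23 genes were, 44.2%, where 22.1% of all rows were. The 12 genes are 63.2% of the 19 higher in Δ*czt-1* and 70.6% of the 17 higher in wild type, while over all rows the shared part was 35.8% of the Δ*czt-1* list and 51% of the wild-type list. Another 7 genes were higher in Δ*czt-1* and under 2-fold in wild type (13.5%, against 11.7% of all rows), and 5 were higher in wild type and under 2-fold in Δ*czt-1* (9.62%, against 6.24% of all rows). Only NCU06326 and NCU09791 were lower in both strains, which is 3.85% of the 52 genes, against 9.7% of all rows. NCU02369, NCU02855 and NCU07190 were lower in Δ*czt-1* and under 2-fold in wild type (5.77%, against 9.87% of all rows). After the same scaling, 2 genes were lower in Δ*czt-1* and none was lower in wild type. Genes under 2-fold with the deposited FPKM that passed it as higher after this scaling included NCU01900, NCU03914, NCU08131 and NCU09680 in both strains, NCU05882, NCU07898 and NCU07974 in Δ*czt-1*, and NCU04885, NCU05404 and NCU07190 in wild type. No gene of the module passed the limit in opposite directions, where 0.95% of all rows did, so this is no result about the module. Under 2-fold in both strains were 23 genes (44.2%), against 52.6% of all rows.

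**Figure D2:**
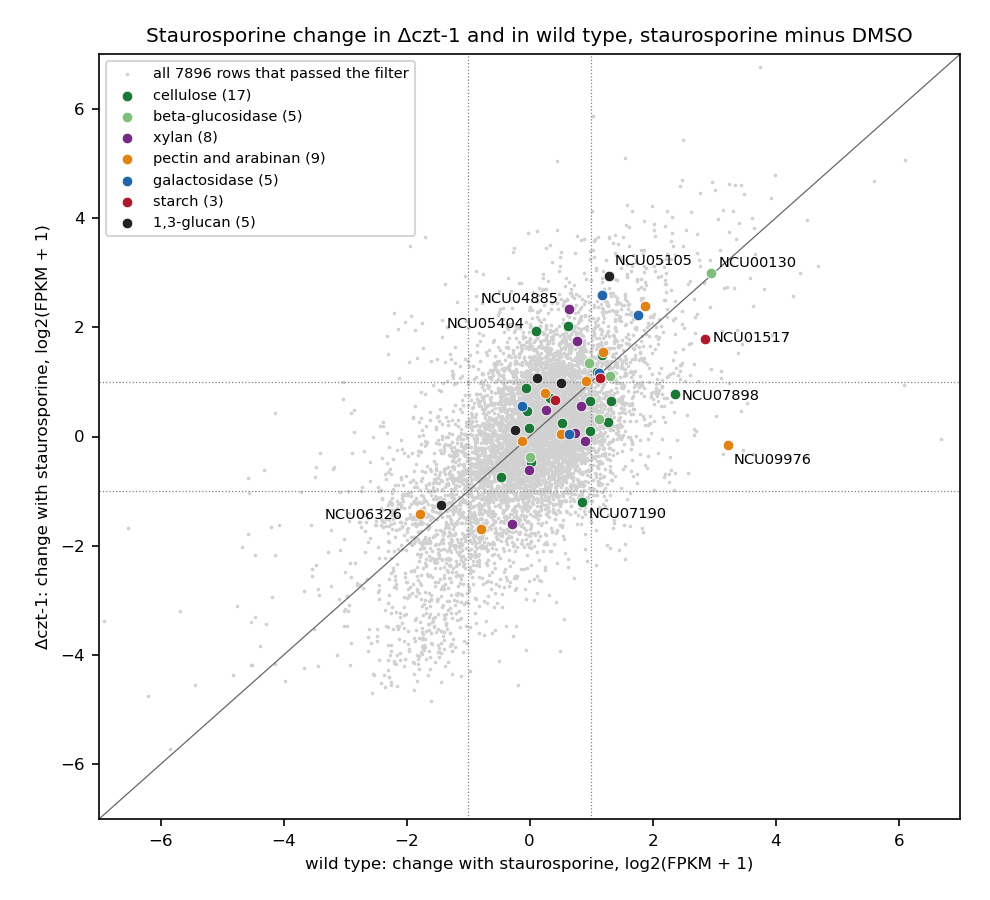
Change with staurosporine, as the difference of log2(FPKM + 1), in Δ*czt-1* (vertical axis) and in wild type (horizontal axis), with the 52 genes of the module coloured by class over all 7896 rows in grey. Dotted lines mark 2-fold and the solid line equal change, and 12 genes of the module lie past 2-fold in the upper right while NCU09976 lies at 3.22 in wild type and −0.16 in Δ*czt-1*.

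The classes differed in how their summed FPKM was spread over the libraries. The 24 cellulose genes summed to 1838 FPKM in Δ*czt-1* with staurosporine, 593 FPKM in Δ*czt-1* with DMSO, 801 FPKM in wild type with staurosporine and 725 FPKM in wild type with DMSO. As shares of the library's FPKM sum, these were 0.334%, 0.0676%, 0.141% and 0.0676% in the same order. By share, the class was thus higher with staurosporine in wild type as well. The 6 beta-glucosidase genes summed to 56.5, 16.9, 56.2 and 16.4 FPKM in the same libraries, so both staurosporine libraries stood above both DMSO libraries by a like amount. The 6 genes of the 1,3-glucan class had 435 FPKM in Δ*czt-1* with staurosporine, 383 FPKM in Δ*czt-1* with DMSO, 399 FPKM in wild type with staurosporine and 467 FPKM in wild type with DMSO. In wild type their FPKM sum was thus lower with staurosporine than with DMSO, but as a share of the library's FPKM sum it was higher, at 0.0700% with staurosporine and 0.0436% with DMSO.

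**Figure D3:**
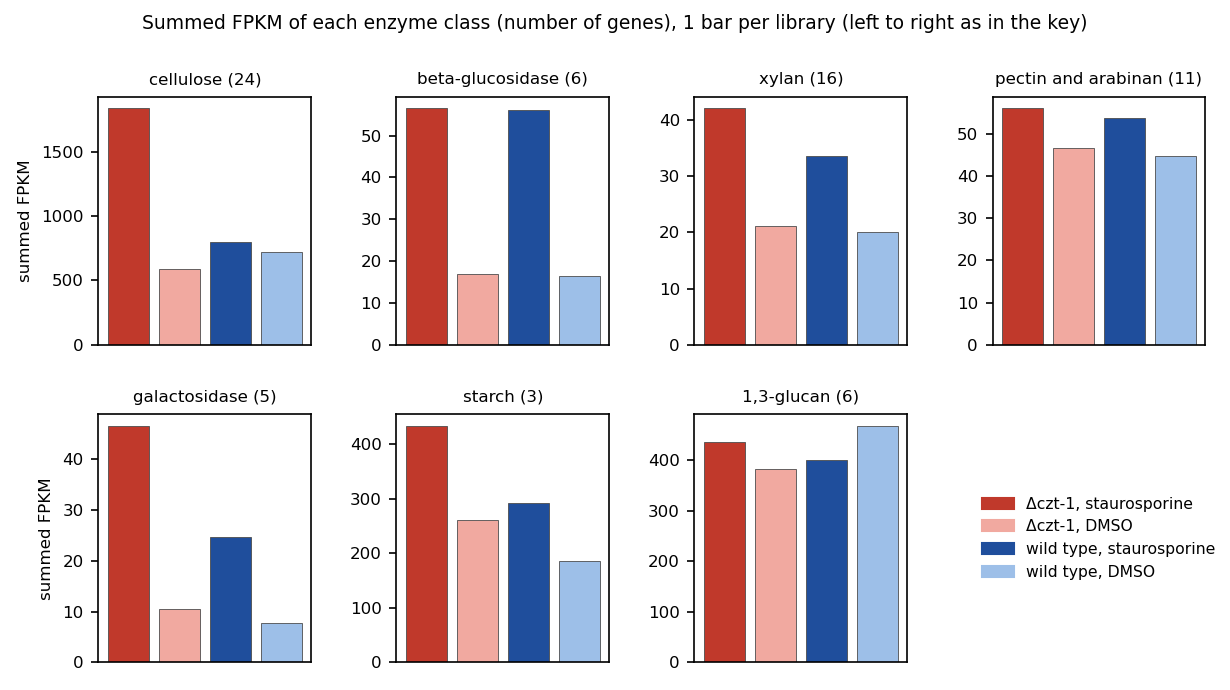
Summed FPKM of the genes of each class, 1 bar per library in the order Δczt-1 with staurosporine, Δczt-1 with DMSO, wild type with staurosporine and wild type with DMSO; each panel has its own vertical axis from 0. The cellulose bar reaches 1838 FPKM in Δczt-1 with staurosporine, and the beta-glucosidase bars are nearly equal in both strains, at 56.5 and 56.2 FPKM with staurosporine.

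The height of the cellulose sum in Δ*czt-1* with staurosporine came mostly from a single gene. NCU05404, described as an endoglucanase, had 1488 FPKM in Δ*czt-1* with staurosporine and 389 FPKM in Δ*czt-1* with DMSO, against 517 FPKM in wild type with staurosporine and 482 FPKM in wild type with DMSO. It was 3.82-fold higher with staurosporine in Δ*czt-1* and 1.07-fold in wild type (2.60 and 1.01 on the log2(FPKM + 1) scale with the FPKM sums made equal), and the strains with staurosporine differed by 1.52 on the log2(FPKM + 1) scale. NCU07974, described as endoglucanase B, was also highest in Δ*czt-1* with staurosporine and lowest in Δ*czt-1* with DMSO, at 283 and 152 FPKM. In wild type it had 194 FPKM with staurosporine and 203 FPKM with DMSO. Its changes of 0.89 in Δ*czt-1* and −0.06 in wild type stayed under 2-fold, though with the FPKM sums made equal the change in Δ*czt-1* was 1.56.

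Of the 24 cellulose genes 17 passed the filter. In Δ*czt-1*, 4 were higher (23.5%, against 18.2% of all rows) and 1 was lower (5.88%, against 19.6%) with staurosporine, with a median change of 0.64. In wild type, 5 were higher (29.4%, against 12.8% of all rows) and none was lower (against 14%), with a median change of 0.63. NCU05057 (*gh7-1*) and NCU07340 (*cbh-1*) were higher in both strains, and the other genes that were higher were so in 1 strain.

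NCU07190 (*gh6-3*, exoglucanase 3), of the family of enzymes that release cellobiose from one end of the cellulose chain, had 5.32 FPKM in Δ*czt-1* with staurosporine and 13.5 FPKM in Δ*czt-1* with DMSO, against 26.0 FPKM in wild type with staurosporine and 13.9 FPKM in wild type with DMSO. The DMSO libraries were alike and the staurosporine libraries lay on opposite sides of them. The changes were −1.19 in Δ*czt-1* and 0.86 in wild type (−0.60 and 1.72 with the FPKM sums made equal), and with staurosporine Δ*czt-1* was lower than wild type by a log2(FPKM + 1) difference of −2.09. Its relative NCU09680 (*gh6-2*, exoglucanase 2) did not share this pattern, with 10.5 and 6.31 FPKM in Δ*czt-1* with staurosporine and with DMSO and with 9.36 and 4.25 FPKM in wild type with staurosporine and with DMSO. Its changes of 0.65 and 0.98 were positive in both strains and under 2-fold.

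NCU07898, described as endoglucanase IV, had 4.81 FPKM in Δ*czt-1* with staurosporine and 2.39 FPKM in Δ*czt-1* with DMSO, against 14.7 FPKM in wild type with staurosporine and 2.07 FPKM in wild type with DMSO. It was the cellulose gene with the largest change in wild type, 2.36, where Δ*czt-1* had 0.78. NCU05882 (cellulase) was higher in wild type alone as well, at 9.53 and 5.74 FPKM in Δ*czt-1* with staurosporine and with DMSO and at 11.7 and 4.06 FPKM in wild type with staurosporine and with DMSO. Here the changes, 0.64 and 1.33, lay on either side of the limit without being far apart.

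The *gh61* genes, described in the files as endoglucanases, belong to a family now known as lytic polysaccharide monooxygenases, which cut cellulose by oxidation. There were 7 of them, 5 passed the filter, and the highest level of any was 7.78 FPKM. NCU03328 (*gh61-6*) had 6.39 FPKM in Δ*czt-1* with staurosporine and 0.826 FPKM in Δ*czt-1* with DMSO, against 1.14 FPKM in wild type with staurosporine and 0.379 FPKM in wild type with DMSO. It stood out in the Δ*czt-1* staurosporine library, with a change of 2.02 where wild type had 0.63. NCU02916 (*gh61-3*) had 4.64 and 3.68 FPKM in Δ*czt-1* with staurosporine and with DMSO, and 6.77 and 2.20 FPKM in wild type with staurosporine and with DMSO. It was higher in wild type, by 1.28, and changed by 0.27 in Δ*czt-1*.

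NCU05057 (*gh7-1*, endoglucanase EG-1) was higher in both strains, with 5.28 and 1.77 FPKM in Δ*czt-1* with staurosporine and with DMSO and 3.71 and 1.20 FPKM in wild type with staurosporine and with DMSO. The principal cellulase gene of fungi grown on cellulose, *cbh-1* (NCU07340, exoglucanase 1), lies under the level at which genes were to be named and was chosen for mention after its values were seen. It had 4.37 FPKM in Δ*czt-1* with staurosporine and 0.911 FPKM in Δ*czt-1* with DMSO, against 2.42 FPKM in wild type with staurosporine and 0.516 FPKM in wild type with DMSO. Both genes were low in every library and higher with staurosporine in both strains, by 1.18 and 1.10 for *gh7-1* and by 1.49 and 1.18 for *cbh-1* in Δ*czt-1* and in wild type.

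Of 5 beta-glucosidase genes that passed the filter, 3 were higher in Δ*czt-1* and 3 in wild type, and none was lower. This is 60% higher in each strain, against 18.2% of all rows in Δ*czt-1* and 12.8% in wild type. With 5 genes, these shares are a description only. NCU00130 and NCU08054 were higher in both strains. NCU08755 (*gh3-3*) was higher in Δ*czt-1*, by 1.35 where wild type had 0.96, and NCU03641 (*gh3-1*) was higher in wild type, by 1.12 where Δ*czt-1* had 0.33. These last 2 genes lie under the level for naming and were chosen after their values were seen. NCU00130 (*gh1-1*) had 29.8 FPKM in Δ*czt-1* with staurosporine and 2.85 FPKM in Δ*czt-1* with DMSO, against 25.3 FPKM in wild type with staurosporine and 2.40 FPKM in wild type with DMSO. It was 10.5-fold higher with staurosporine in each strain as a ratio of FPKM. On the log2(FPKM + 1) scale its change in Δ*czt-1*, 3.001, was the largest of the module, beside 2.95 in wild type, while as a ratio of FPKM NCU05105 (13.7-fold) and NCU05956 (12.4-fold) changed more. NCU08054 (*gh3-2*) had 18.8 and 8.21 FPKM in Δ*czt-1* with staurosporine and with DMSO and 19.8 and 7.38 FPKM in wild type with staurosporine and with DMSO, with changes of 1.10 and 1.31. For both genes the strains differed by 0.23 or less on the log2(FPKM + 1) scale with either treatment.

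The xylan class was the weakest, since 8 of its 16 genes stayed under 1 FPKM in every library. Of the 8 that passed the filter, 2 were higher and 1 was lower in Δ*czt-1*, and none reached 2-fold in wild type. In Δ*czt-1* this is 25% and 12.5%, against 18.2% and 19.6% of all rows. In wild type 12.8% of all rows were higher and 14% lower. With 8 genes, these shares are a description only. NCU04885, an alpha-xylosidase, which removes xylose side groups, is in this class only by the word xylosidase in its description. Whether it acts on xylan is not given there. It had 18.8 FPKM with staurosporine and 2.92 FPKM with DMSO in Δ*czt-1*. In wild type it had 6.16 FPKM with staurosporine and 3.57 FPKM with DMSO. Its change was 2.34 in Δ*czt-1* and 0.65 in wild type. NCU01900 (xylosidase/arabinosidase) stayed under 2-fold, with 12.4 and 8.16 FPKM in Δ*czt-1* with staurosporine and with DMSO and 16.4 and 8.77 FPKM in wild type with staurosporine and with DMSO. The xylanases proper, which cut the xylan backbone, did not pass 4 FPKM. Of these, NCU08189 (*gh10-2*) and NCU02855 (*gh11-1*), chosen after their values were seen, went opposite ways in Δ*czt-1*, with changes of 1.74 and −1.61, and changed by 0.78 and −0.29 in wild type.

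The genes for pectin and arabinan moved in both directions, and the largest change of the module in wild type was among them. Of 9 genes that passed the filter, 3 were higher and 2 lower in Δ*czt-1*, and 3 were higher and 1 lower in wild type. In Δ*czt-1* this is 33.3% and 22.2%, against 18.2% and 19.6% of all rows. In wild type it is 33.3% and 11.1%, against 12.8% and 14% of all rows. With 9 genes, these shares are a description only. NCU06326 (pectate lyase 1), which cleaves the pectin backbone by elimination, had 8.87 FPKM in Δ*czt-1* with staurosporine and 25.4 FPKM in Δ*czt-1* with DMSO, against 5.28 FPKM in wild type with staurosporine and 20.7 FPKM in wild type with DMSO. It was lower with staurosporine in both strains, with changes of −1.42 and −1.79, which became −0.79 and −0.96 with the FPKM sums made equal. NCU02369 (*gh28-1*, polygalacturonase), which cleaves the same backbone by hydrolysis, had 1.20 and 6.15 FPKM in Δ*czt-1* with staurosporine and with DMSO, and 4.53 and 8.58 FPKM in wild type with staurosporine and with DMSO. Its change of −1.70 in Δ*czt-1* passed the limit and that of −0.79 in wild type did not.

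NCU00972, described as an arabinogalactan endo-1,4-beta-galactosidase, had 23.5 FPKM in Δ*czt-1* with staurosporine and 3.67 FPKM in Δ*czt-1* with DMSO, against 14.4 FPKM in wild type with staurosporine and 3.20 FPKM in wild type with DMSO. NCU10045 (pectinesterase), which removes methyl groups from pectin, had 9.36 and 2.53 FPKM in Δ*czt-1* with staurosporine and with DMSO and 8.02 and 2.97 FPKM in wild type with staurosporine and with DMSO. Both were higher with staurosporine in both strains, with changes of 2.39 and 1.87 for NCU00972 and of 1.55 and 1.19 for NCU10045 in Δ*czt-1* and in wild type. Other genes of the class followed neither pattern, and those named here were chosen after their values were seen. NCU08176 (pectate lyase A) changed by −0.08 and −0.13 in Δ*czt-1* and in wild type, NCU05965 (arabinosidase) by 0.04 and 0.50, NCU02343 (alpha-L-arabinofuranosidase 2) by 0.79 and 0.25, and NCU06961 (*gh28-2*, exopolygalacturonase) by 1.02 and 0.91.

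NCU09976, described as a rhamnogalacturonan acetylesterase, which takes acetyl groups off a pectin backbone, reached 1 FPKM in a single library. It had 0.308 FPKM in Δ*czt-1* with staurosporine and 0.459 FPKM in Δ*czt-1* with DMSO, against 9.47 FPKM in wild type with staurosporine and 0.126 FPKM in wild type with DMSO. It was 75.1-fold higher with staurosporine in wild type, a change of 3.22 on the log2(FPKM + 1) scale and the largest of the module there, while the change in Δ*czt-1* was −0.16. Among all rows, 50 had a wild-type change of at least 3, and 12 of them changed by less than 1 in Δ*czt-1*. NCU09976 was the only gene of the module among the 12. The limit of 3 was chosen with this gene in view. It lies between 3.22 and the next largest wild-type change of the module, 2.95 (NCU00130), which fixed this outcome. The 12 rows also include *czt-1* itself, which is deleted in Δ*czt-1*, and *abc3*.

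By gene order in the NC12 assembly, NCU09976 directly follows *abc3* (NCU09975, multidrug resistance protein 3), an ABC transporter gene, which itself follows *czt-1*. *abc3* had 13.0 FPKM in Δ*czt-1* with staurosporine and 13.4 FPKM in Δ*czt-1* with DMSO, against 798 FPKM in wild type with staurosporine and 6.79 FPKM in wild type with DMSO. The 3 adjacent genes *czt-1*, *abc3* and NCU09976 were thus all highest in the wild-type staurosporine library. The genes directly on either side did not share this, but further out NCU09972, NCU09978 and NCU09980 were also highest in that library, at 97.9, 1.13 and 22.1 FPKM, with changes under 2-fold. NCU09973, before *czt-1*, had 23.5 and 31.2 FPKM in Δ*czt-1* with staurosporine and with DMSO and 13.7 and 7.88 FPKM in wild type with staurosporine and with DMSO. NCU09977, after NCU09976, had 0.304 and 0.0670 FPKM in Δ*czt-1* with staurosporine and with DMSO and was listed at 0 in wild type with staurosporine and at 0.207 FPKM in wild type with DMSO. The value of NCU09976 in wild type with staurosporine is small beside that of *abc3*, and the part that reads from *abc3* have in it was not tested.

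**Figure D4:**
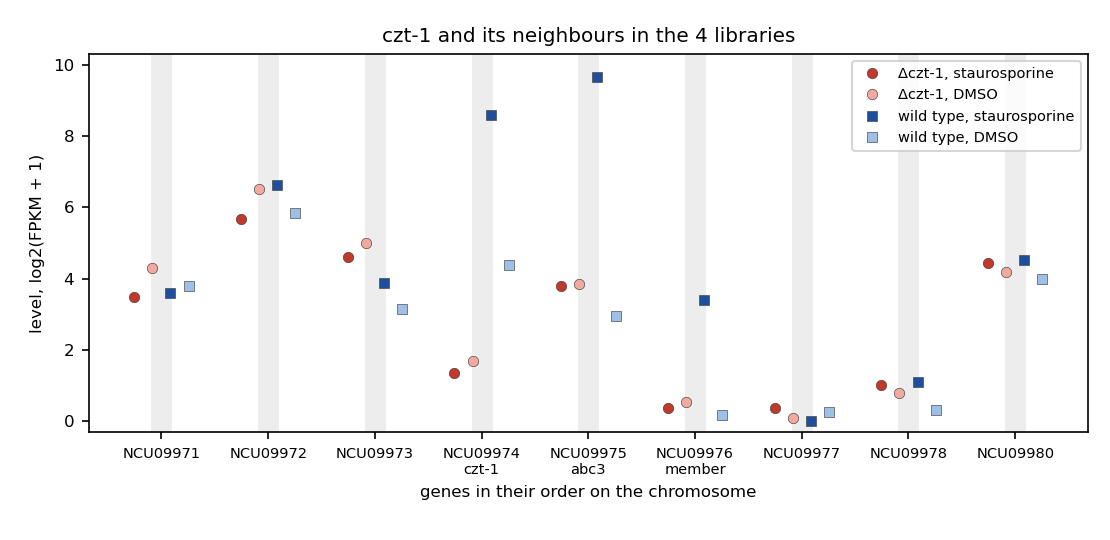
Level, as log2(FPKM + 1), of *czt-1* (NCU09974), *abc3* (NCU09975), NCU09976 and the nearest genes on both sides in chromosomal order, 1 point per library. *czt-1*, *abc3* and NCU09976 are highest in wild type with staurosporine, at 384, 798 and 9.47 FPKM, and NCU09977 is listed at 0 there.

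The galactosidases, which release galactose from hemicellulose and pectin side chains, all passed the filter, and 3 of the 5 were higher in each strain with none lower. This is 60% higher, against 18.2% of all rows in Δ*czt-1* and 12.8% in wild type. With 5 genes, these shares are a description only. NCU00810 (*gh2-3*, beta-galactosidase) had 24.5 FPKM in Δ*czt-1* with staurosporine and 4.46 FPKM in Δ*czt-1* with DMSO, against 12.4 FPKM in wild type with staurosporine and 2.96 FPKM in wild type with DMSO. NCU05956 (*gh2-2*, beta-galactosidase) had 9.77 and 0.785 FPKM in Δ*czt-1* with staurosporine and with DMSO and 2.11 and 0.381 FPKM in wild type with staurosporine and with DMSO. Both were higher with staurosporine in both strains, with changes of 2.23 and 1.77 for *gh2-3* and of 2.59 and 1.17 for *gh2-2* in Δ*czt-1* and in wild type, and *gh2-2* was also higher in Δ*czt-1* than in wild type with staurosporine, by 1.79. NCU02550 (alpha-galactosidase) had 10.2 and 4.0 FPKM in Δ*czt-1* with staurosporine and with DMSO and 8.32 and 3.28 FPKM in wild type with staurosporine and with DMSO, with changes of 1.17 and 1.12.

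All 3 starch genes had positive changes in both strains, where 50% of all rows did in Δ*czt-1* and 55.3% in wild type. Of the 52 genes of the module, 76.9% did in each strain. With 3 genes, this is a description only. NCU01517 (*gla-1*, a glucoamylase precursor), which releases glucose from the ends of starch chains, had 20.5 FPKM in Δ*czt-1* with staurosporine and 5.29 FPKM in Δ*czt-1* with DMSO, against 52.2 FPKM in wild type with staurosporine and 6.33 FPKM in wild type with DMSO. It was higher with staurosporine in both strains, by 1.78 and 2.86, and with staurosporine it was lower in Δ*czt-1* than in wild type, with a difference of −1.30. The abundant alpha-amylase NCU08131 (*gh13-1*) had 407 and 254 FPKM in Δ*czt-1* with staurosporine and with DMSO and 238 and 179.7 FPKM in wild type with staurosporine and with DMSO, changes of 0.68 and 0.41 that stayed under 2-fold. NCU09805 (*gh13-2*, alpha-amylase) had 5.70 and 2.20 FPKM in Δ*czt-1* with staurosporine and with DMSO, and 2.22 and 0.453 FPKM in wild type with staurosporine and with DMSO. It was higher with staurosporine by 1.06 and 1.15.

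In the 1,3-glucan class, NCU09175 (GPI-anchored beta-1,3-endoglucanase) was abundant and nearly level, with 397 and 365 FPKM in Δ*czt-1* with staurosporine and with DMSO and 382 and 452 FPKM in wild type with staurosporine and with DMSO. NCU05105 (glucan endo-1,3-beta-glucosidase) had 15.2 FPKM in Δ*czt-1* with staurosporine and 1.11 FPKM in Δ*czt-1* with DMSO, against 4.82 FPKM in wild type with staurosporine and 1.39 FPKM in wild type with DMSO. It was higher with staurosporine in both strains, by 2.94 in Δ*czt-1* and 1.29 in wild type. NCU09791 (beta-1,3-exoglucanase) was lower with staurosporine in both, though under 2-fold with the FPKM sums made equal, at 2.14 and 6.44 FPKM in Δ*czt-1* with staurosporine and with DMSO and at 1.34 and 5.37 FPKM in wild type with staurosporine and with DMSO. NCU03914 (glucan 1,3-beta-glucosidase) had 17.6 and 8.50 FPKM in Δ*czt-1* with staurosporine and with DMSO and 9.66 and 6.50 FPKM in wild type with staurosporine and with DMSO, with changes of 0.97 and 0.51. The class thus held genes that were higher, lower and under 2-fold in the same libraries.

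With DMSO, only NCU09805 (*gh13-2*) passed 2-fold between Δ*czt-1* and wild type, with a difference of 1.14. This is 1.92% of the 52 genes, where 4.94% of all rows passed (2.58% higher and 2.36% lower). Both shares are small, so a count of 1 gene is no result about the module. The log2(FPKM + 1) scale also understates differences of weak genes. The median difference was 0.16, with 0.05 over all rows. With staurosporine, 7 genes were higher and 6 were lower in Δ*czt-1* than in wild type, 25% of the 52 genes, where 23.1% of all rows passed (10.9% higher and 12.2% lower). This share is near the background and is no result about the module as a whole. The 7 higher genes included NCU05404, NCU03328, NCU04885, NCU05105, NCU05956 and NCU09805, and the 6 lower ones included NCU09976, NCU07190, NCU07898, NCU02369 and NCU01517. The strain comparisons use the same 4 libraries as the treatment comparisons and are not independent of them. The difference between the strains in the staurosporine change was at least 1 in either direction for 11 genes (5 greater and 6 smaller in Δ*czt-1*), which is 21.2%, where the share of all rows was 30.9% (13.5% greater and 17.5% smaller).

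Regulators of these enzymes were read together with sugar uptake genes and invertase, as a list of 11 genes of which 10 passed the filter. In Δ*czt-1* none was higher and 1 was lower with staurosporine, where 18.2% of all rows were higher and 19.6% lower. In wild type 4 were higher and none was lower, where 12.8% of all rows were higher and 14% lower. Of the 4, *clr-1* and *xlr-1* are transcription factor genes, and NCU02582 and *inv* are not. The median change of the list was −0.04 in Δ*czt-1* and 0.77 in wild type, with 0.00 and 0.11 over all rows. The regulator counts and changes use the deposited FPKM alone. Equal FPKM sums moved the median change of all rows to 0.60 in Δ*czt-1* and 0.85 in wild type. Changes of this list near the limit, and the signs of its small changes, therefore depend on the scaling.

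NCU07705 (*clr-1*), which activates cellulase genes, had 5.55 FPKM in Δ*czt-1* with staurosporine and 4.36 FPKM in Δ*czt-1* with DMSO, against 9.45 FPKM in wild type with staurosporine and 2.14 FPKM in wild type with DMSO. NCU06971 (*xlr-1*), which activates xylanase genes, had 3.22 and 3.40 FPKM in Δ*czt-1* with staurosporine and with DMSO and 7.67 and 1.78 FPKM in wild type with staurosporine and with DMSO. Both were higher with staurosporine in wild type, by 1.74 and 1.64, and changed by 0.29 and −0.06 in Δ*czt-1*. NCU08042 (*clr-2*) did not exceed 0.355 FPKM in any library.

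NCU08807 (*cre-1*), the repressor, had 24.2 FPKM in Δ*czt-1* with staurosporine and 49.5 FPKM in Δ*czt-1* with DMSO, against 52.5 FPKM in wild type with staurosporine and 43.0 FPKM in wild type with DMSO. Its change of −1.002 in Δ*czt-1* lay just past the limit with the deposited FPKM, and in wild type it was 0.28. NCU07788 (*col-26*), a regulator of glucose and starch use, had 25.7 and 40.2 FPKM in Δ*czt-1* with staurosporine and with DMSO, and 41.3 and 23.6 FPKM in wild type with staurosporine and with DMSO. With the deposited FPKM this is under 2-fold in both strains and of opposite sign. NCU03725 (*vib-1*), a transcription factor of cell death and of cellulase expression, differed more by strain than by treatment with the deposited FPKM. It had 45.0 and 39.6 FPKM in Δ*czt-1* with staurosporine and with DMSO and 21.3 and 20.6 FPKM in wild type with staurosporine and with DMSO. NCU09033 (a C6 transcription factor) had 8.29 and 4.94 FPKM in Δ*czt-1* with staurosporine and with DMSO and 5.74 and 2.98 FPKM in wild type with staurosporine and with DMSO.

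The invertase gene *inv* (NCU04265), whose enzyme splits sucrose, had 46.6 FPKM in Δ*czt-1* with staurosporine and 71.3 FPKM in Δ*czt-1* with DMSO, against 322 FPKM in wild type with staurosporine and 64.7 FPKM in wild type with DMSO. It had the largest change of this list in wild type, 2.30, and −0.60 in Δ*czt-1*. NCU02582, described as RCO3, a glucose sensor, had 17.2 and 11.0 FPKM in Δ*czt-1* with staurosporine and with DMSO and 21.5 and 6.92 FPKM in wild type with staurosporine and with DMSO, with changes of 0.60 and 1.51. The cellodextrin transporter genes NCU00801 (*cdt-1*) and NCU08114 (*cdt-2*) had highest levels of 3.29 and 1.10 FPKM and stayed under 2-fold in all 4 comparisons.

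A set of 68 other carbohydrate-active enzymes, among them chitinases, mannosidases and trehalases, was set beside the module. Of its 52 genes that passed the filter, 12 were higher and 2 were lower in Δ*czt-1* with staurosporine than with DMSO, and 13 were higher and none was lower in wild type. The median changes were 0.27 and 0.36. The module, with 19 and 17 of 52 genes higher and medians of 0.65 and 0.69, had more genes higher in both strains, and whether it differs from these enzymes was not tested.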

How the data were processed

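RNA sequencing of 4 libraries, 1 per group, was analysed from 3 deposited tables. Single 50-base reads were mapped by the authors with TopHat2 2.0.4, and they estimated abundance with Cufflinks 2.0.2, per the submitters' processing notes, and compared libraries with Cuffdiff. The deposited values are FPKM, normalized by the authors for transcript length and library size, with a decimal comma. The genome build, the strandedness of counting and the handling of reads shared by near-identical genes were not given in the sources used here. Values of gene families and of overlapping genes are therefore uncertain. The tables also hold the authors' fold changes, test statistics, p-values and q-values, which were not used. Libraries shared between tables held identical values (largest difference 0), which allowed the comparison of the strains with staurosporine.

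A change is the difference between log2(FPKM + 1) values. Rows that reached 1 FPKM in any library entered, and those past 2-fold were counted. No test was run, since each group has 1 library. Depth is unknown and could not be read from low values. For each pair of libraries, FPKM ratios were taken over rows above 0 and under 1 FPKM in both. At most 8.86% of the ratios of a pair lay within 0.5% of ratios of small whole read numbers, at the best-fitting scale. This share was for the pair of DMSO libraries. Genes were named if they reached 10 FPKM in any library, or 5 FPKM with a 2-fold change, or neighboured *czt-1* or *abc3*, and all 11 regulators and transporters were named. The gene module, classes and lists were chosen with earlier results of these data known. All 71 genes matched a locus tag of the RefSeq annotation of NC12, which gave 42 symbols and the gene order, and 66 rows that join several loci were kept as 1 row. Alternatives were a pseudocount of 0.1 or 5, no filter, a filter of 10 FPKM, centring on the median row, scaling to the same FPKM sum, thresholds of 1.5-fold and 4-fold, and omission of the 1,3-glucan class. Python 3.11.15, numpy 2.4.6, pandas 2.3.3 and matplotlib 3.10.9 were used. The scripts were tested on simulated data.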

Additional observations from a re-analysis of the deposited data

Results flagged for a closer look

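The staurosporine change had opposite signs in the strains for 10 of the 52 genes, and 2 of these, given here, passed 2-fold in 1 strain. The share of all rows with opposite signs was not counted, so the number 10 is no result about the module. For NCU07190 (*gh6-3*, exoglucanase 3) the level was lower with staurosporine than with DMSO in Δ*czt-1* and higher in wild type, and the change in Δ*czt-1* minus that in wild type was −2.05 on the log2(FPKM + 1) scale. For NCU09976 (rhamnogalacturonan acetylesterase) this difference was −3.38, with a change of −0.16 in Δ*czt-1*, which became 0.03 with the FPKM sums of the libraries made equal. With 1 library in each group neither difference was tested.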

How the results depend on the processing

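The counts of genes that passed 2-fold depended on the pseudocount, the filter and the scaling. They were 24 for staurosporine in Δ*czt-1*, 19 for staurosporine in wild type, 13 between the strains with staurosporine and 1 between the strains with DMSO. In the same order they became 9, 8, 8 and 0 with a pseudocount of 5, and 11, 10, 6 and 0 with a filter of 10 FPKM, which left 19 genes. With the pseudocount of 5 these are 17.3%, 15.4%, 15.4% and 0%, against 24.7%, 17.7%, 12% and 1.86% of all rows. With the filter of 10 FPKM they are 57.9%, 52.6%, 31.6% and 0%, against 40.6%, 31.4%, 23.7% and 4.48%. With a 4-fold threshold the counts were 7, 4, 2 and 0. These are 13.5%, 7.69%, 3.85% and 0%, near the 12.1%, 5.93%, 4.26% and 0.646% of all rows. With a 1.5-fold threshold the counts were 32 in wild type, 29 between the strains with staurosporine and 3 between the strains with DMSO. These are 61.5%, 55.8% and 5.77%, against 49.4%, 45.1% and 19.6% of all rows. A pseudocount of 0.1 gave 3 between the strains with DMSO (5.77%, against 9.97% of all rows). Scaling every library to the same FPKM sum moved the median change of all rows to 0.60 in Δ*czt-1* and to 0.85 in wild type. The count was then 32 in wild type, with 32 genes higher and 0 lower (100% higher, against 89.5% with the deposited FPKM). In Δ*czt-1* it was 30, with 28 higher and 2 lower (93.3% higher, against 79.2%). All rows moved the same way under this scaling, with 3403 higher and 353 lower in wild type and 2766 higher and 846 lower in Δ*czt-1*. The shares past 2-fold were 61.5% of the 52 genes and 47.6% of all rows in wild type. In Δ*czt-1* they were 57.7% and 45.7%. Relative to the median of all rows, the median of the 52 genes under this scaling was 0.61 in Δ*czt-1* and 0.46 in wild type, against 0.65 and 0.58 with the deposited FPKM. Of the 57 called changes of single genes in the 4 comparisons, 0 changed sign with another pseudocount, centring or equal FPKM sums, while 32 fell under 2-fold with a pseudocount of 5, 5 with equal sums and 1 with centring. No paired analysis was possible because each group has 1 library, and for the same reason no replicate could be left out. With depth unknown, the weakest genes cannot be given a counting error.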
